A study of Mus musculus with 9 samples.

Results

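The BCL2 family decides whether the outer membrane of the mitochondrion is opened, the step at which a cell commits to apoptosis. Described here are 10 of its genes, out of 55487 gene identifiers in each deposited table. The genes came from a list of symbols, which was chosen with earlier results of these data known. They are the BH3-only genes Bbc3, Bmf, Bcl2l11, Pmaip1, Bid and Bad, the effectors Bax and Bak1, and the anti-apoptotic genes Mcl1 and Bcl2l1. Each matched 1 identifier, and all 10 had enough counts to be tested.

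The libraries came from J774A.1, an established mouse macrophage line. Of 9 RNA-seq libraries, 3 were from cells with Slc12a9 sgRNA 11, 3 from cells with Slc12a9 sgRNA 15 and 3 from cells with a safe control sgRNA, whose genotype is labelled WT. The label of both guide groups is SLC12A9 knockdown, while the series' design speaks of knockout. Cells of every group had been kept without serum and glutamine for 6 h before lysis, after growth in medium with both, so the safe cells were starved in the same way, and fed cells were not analysed here. The labels do not say whether a guide group is a clone or a pool, nor whether replicates were separate cultures, so the p-values measure the spread between these libraries, which may be technical. RNA was taken from whole cultures, so fewer cells with a transcript and less of it per cell cannot be told apart.

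Bax and Bak1 form the pores in the mitochondrial membrane that release cytochrome c. Mcl1 and Bcl2l1 (BCL-XL) bind and restrain them, and BH3-only proteins, which carry only the short BH3 segment shared by the family, block the restraining proteins or activate the effectors. In starved cells of many kinds, transcription of Bbc3, Bmf and Bcl2l11 is a known control point, with p53 and FoxO factors among the regulators of Bbc3 and FoxO factors among those of Bcl2l11.

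Gene counts ran from 16405296 to 25613961 per library, and 13453 genes were tested. Slc12a9 itself was not lower in either guide group, with a log2 fold change of 0.43 for sgRNA 11 (adjusted p = 6.45e-13) and 0.05 for sgRNA 15 (adjusted p = 0.426), at 62.6, 66.3 and 67.0 CPM (counts scaled to the size of the library) with sgRNA 11, 48.2, 50.01 and 51.7 CPM with sgRNA 15, and 44.8, 53.5 and 47.0 CPM with safe sgRNA. A transcript level does not show whether the protein was lost, and protein was not measured here. All 8 macrophage markers were tested, and they summed to 8391 to 8663 CPM with sgRNA 11, 6700 to 6782 CPM with sgRNA 15 and 4624 to 4832 CPM with safe sgRNA. Of 10 markers of other cell types, 6, Cd3e among them, had no count in any library, and the sum of all 10 was at most 1.22 CPM. With sgRNA 11, 7 of the 8 macrophage markers rose and Cd68 fell, where 33.3% of all tested genes rose and 32.4% fell. With sgRNA 15, 6 rose, Fcgr1 fell and Csf1r was not called, where 32.2% of all tested genes rose and 30.7% fell. Itgam, among those that rose, shares 68.7% of its exon length with Gm49368 on the same strand. Lyz2 made up much of the sum, at a mean of 4513 CPM with sgRNA 11 and 3567 CPM with sgRNA 15, against 1727 CPM with safe sgRNA. The part of these marker differences in the differences described here was not tested.

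A FoxO core motif stood in the promoter windows of a pair of these genes, the starvation-linked Bcl2l11 and Bbc3. The windows run from 250 bases before to 50 bases after each RefSeq start (GRCm38.p6), and 17 windows covered 9 of the 10 genes, all but Pmaip1. The motif searched was GTAAACA on both strands, printed in capitals; for Bbc3 it reads TGTTTAC, its reverse complement. The stretch of Bcl2l11 is chr2:128125788-128125847 and that of Bbc3 is chr7:16310064-16310130, both 5′ to 3′ on the plus strand, which is the strand of both genes.
Bcl2l11: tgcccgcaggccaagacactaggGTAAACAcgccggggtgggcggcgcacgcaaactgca
Bbc3: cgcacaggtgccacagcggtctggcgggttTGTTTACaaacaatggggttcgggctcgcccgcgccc
The Bcl2l11 match lay 220 bases upstream of the start at position 128126038, outside any annotated exon. The Bbc3 match lay 160 bases upstream of the start at position 16310261, in an intron of longer annotated transcripts. Bcl2l11 had 2 windows and Bbc3 had 3, and for neither gene did every window hold the motif. Of 32851 RefSeq windows, 3.65% held GTAAACA, and 4.05% of 27025 genes had a window with it. The composite element of ATF4 and C/EBP, TGATGNAA (N is any base), was in 3.97% of all windows and in none of the windows of these genes. The p53 site was searched only as its full consensus, with no spacer and no mismatch allowed. That pattern was in 0.00913% of all windows (3 of 32851) and in none of the windows of these genes. With so rare a pattern, its absence does not show that these genes lack p53 sites. A match describes these letters and no binding was measured. Of the pair, the Bbc3 transcript rose with both guides, and that of Bcl2l11 was at most slightly lower.

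Among the BH3-only genes, Bbc3 and Bmf were higher with both Slc12a9 guides than with safe sgRNA, and Pmaip1 and Bid were lower. In the fit over all genes, 8 of the 10 genes passed an adjusted p of 0.05 with sgRNA 11, against a background of 65.8% of all tested genes, with 3 higher (background 33.3%) and 5 lower (background 32.4%). Under scaling by library size only the split was 4 higher and 3 lower. In that setting the median log2 fold change of all tested genes was 0.046, against 0.013 in the fit above, to which the backgrounds belong. With sgRNA 15, 8 of 10 passed as well, against a background of 62.9%, again with 3 higher (background 32.2%) and 5 lower (background 30.7%). For the mean of the guides 9 of 10 passed (background 68.0%), with 3 higher (34.7%) and 6 lower (33.3%). All 3 comparisons use the same safe libraries, and with most genes of the cell called, a count of 8 or 9 in 10 is not read as particular to these genes. By a stricter rule of a log2 fold change of at least 0.5 in either direction, 3 genes passed with sgRNA 11 (Bbc3, Bmf and Pmaip1; background 27.6%) and 5 with sgRNA 15 (Bbc3, Bmf, Pmaip1, Bid and Bcl2l1; background 23.9%), and 4 for the mean of guides (Bbc3, Bmf, Pmaip1 and Bid; background 25.7%). The libraries did not overlap with those of safe sgRNA in 9 genes for sgRNA 11 (all but Bax; background 67.7%) and in 8 for sgRNA 15 (all but Bcl2l11 and Mcl1; background 65.8%). In 6 genes (Bbc3, Bmf, Pmaip1, Bid, Bak1 and Bcl2l1) all guide libraries lay on 1 side of all safe libraries, as they did in 52.8% of all tested genes. The median log2 fold change over the 10 genes was -0.08 with sgRNA 11 and -0.10 with sgRNA 15, and over all tested genes it was 0.01 in each comparison. The median absolute log2 fold change was 0.22 with sgRNA 11, against 0.32 over all genes, and 0.40 with sgRNA 15, against 0.29 over all genes.

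Bbc3 encodes PUMA, a BH3-only protein that binds every anti-apoptotic relative, and lies at chr7:16308393-16318205 (mm10). It stood at 105.5, 113.1 and 106.7 CPM with sgRNA 11 and 90.6, 87.4 and 93.1 CPM with sgRNA 15, against 27.2, 28.4 and 29.5 CPM with safe sgRNA. The 3 groups did not overlap, and every guide library stood far above every safe one. The rise was 3.83-fold with sgRNA 11 (log2 1.94, SE 0.05, adjusted p = 5.80e-55, edgeR quasi-likelihood) and 3.19-fold with sgRNA 15 (log2 1.67, SE 0.05, adjusted p = 1.79e-49). Compared directly, sgRNA 15 was below sgRNA 11 by a log2 fold change of -0.26 (SE 0.04, adjusted p = 2.45e-08).

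Bmf (chr2:118528757-118549687) encodes a BH3-only protein held on the actin cytoskeleton through the dynein light chain Dynll2. Its levels were 20.9, 23.4 and 22.5 CPM with sgRNA 11 and 7.92, 8.66 and 10.7 CPM with sgRNA 15, against 4.35, 5.51 and 4.86 CPM with safe sgRNA. It was the scarcest of the 10 genes, with 90 counts in its lowest library, and still the groups did not overlap. Bmf rose 4.56-fold with sgRNA 11 (log2 2.19, SE 0.10, adjusted p = 1.14e-33) and 1.84-fold with sgRNA 15 (log2 0.88, SE 0.12, adjusted p = 4.11e-10). The gap between the guides was the widest of the 10 genes, with sgRNA 15 below sgRNA 11 by a log2 fold change of -1.31 (SE 0.09, adjusted p = 9.75e-22).

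Bcl2l11 (chr2:128126038-128162547) encodes BIM, which in healthy cells is held on microtubules through the light chain Dynll1. It had 49.6, 48.1 and 48.4 CPM with sgRNA 11 and 45.0, 55.1 and 49.5 CPM with sgRNA 15, against 56.0, 52.6 and 52.1 CPM with safe sgRNA. The sgRNA 11 libraries lay just below the safe ones, and the sgRNA 15 libraries ran from below the safe range to within it, with a coefficient of variation of 10.2% where counting alone gives 3.13%. The fall with sgRNA 11 was small (log2 -0.14, SE 0.05, adjusted p = 0.0134), and it was no longer called without safe replicate 1 (adjusted p = 0.126) or with scaling by library size only (adjusted p = 0.061). With sgRNA 15 the log2 fold change was -0.10 (SE 0.05, adjusted p = 0.0761), and without sgRNA 15 replicate 2, its highest library, it was -0.19 (adjusted p = 0.00173). Without sgRNA 15 replicate 1, its lowest library, it was -0.03 (adjusted p = 0.635), and with GC and length trends removed it was -0.20 (adjusted p = 0.000511).

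Pmaip1, on chromosome 18, encodes NOXA, a BH3-only protein that binds MCL1 and BCL2A1 in preference to BCL-XL. Levels were 22.6, 22.8 and 25.5 CPM with sgRNA 11 and 26.8, 28.4 and 27.2 CPM with sgRNA 15, against 47.7, 47.6 and 47.8 CPM with safe sgRNA. Every guide library was far below every safe library. Pmaip1 fell by 1.01 on the log2 scale with sgRNA 11 (SE 0.06, adjusted p = 4.18e-28) and by 0.80 with sgRNA 15 (SE 0.06, adjusted p = 2.69e-22). The guides differed by a log2 fold change of 0.22, higher with sgRNA 15 (SE 0.06, adjusted p = 0.00418), a call that was lost without sgRNA 11 replicate 1 (adjusted p = 0.0541) and with trends of GC content and gene length removed (log2 0.14, adjusted p = 0.088).

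Bid (chr6:120891930-120916853) links death receptors to mitochondria, since caspase-8 cuts its protein into the active form. It had 88.4, 85.5 and 90.1 CPM with sgRNA 11 and 73.8, 73.1 and 72.5 CPM with sgRNA 15, against 119.7, 123.5 and 126.9 CPM with safe sgRNA. The order was safe sgRNA, sgRNA 11, sgRNA 15 from high to low, with no overlap. Bid fell by 0.48 on the log2 scale with sgRNA 11 (SE 0.04, adjusted p = 1.47e-21) and by 0.75 with sgRNA 15 (SE 0.04, adjusted p = 2.41e-32), and sgRNA 15 was below sgRNA 11 by -0.27 (SE 0.04, adjusted p = 9.18e-09). Exons of Bid overlap Bcl2l13 on the other strand over 17.7% of their length, and since the strand setting of the counting is not given in the sources used here, its values are uncertain to that extent.

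Bad (chr19:6941861-6951899) encodes a BH3-only protein that 14-3-3 proteins hold in the cytosol when survival signals phosphorylate it. It had 27.1, 28.9 and 30.4 CPM with sgRNA 11 and 25.01, 23.8 and 26.39 CPM with sgRNA 15, against 26.6, 26.9 and 26.45 CPM with safe sgRNA. The sgRNA 11 libraries lay above the safe ones and the sgRNA 15 libraries below, each by a narrow margin. Neither difference passed the test, with a log2 fold change of 0.11 for sgRNA 11 (SE 0.06, adjusted p = 0.124) and -0.09 for sgRNA 15 (SE 0.07, adjusted p = 0.207). That of sgRNA 11 was called with scaling by library size only (log2 0.14, adjusted p = 0.0419) and without sgRNA 11 replicate 1 (log2 0.16, adjusted p = 0.0403), and that of sgRNA 15 with GC and length trends removed (log2 -0.19, adjusted p = 0.00866). The sgRNA 11 value changed sign to -0.051 with GC and length trends removed, and 20.5% of Bad's exon length overlaps Gpr137 on the other strand.

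**Figure D1:**
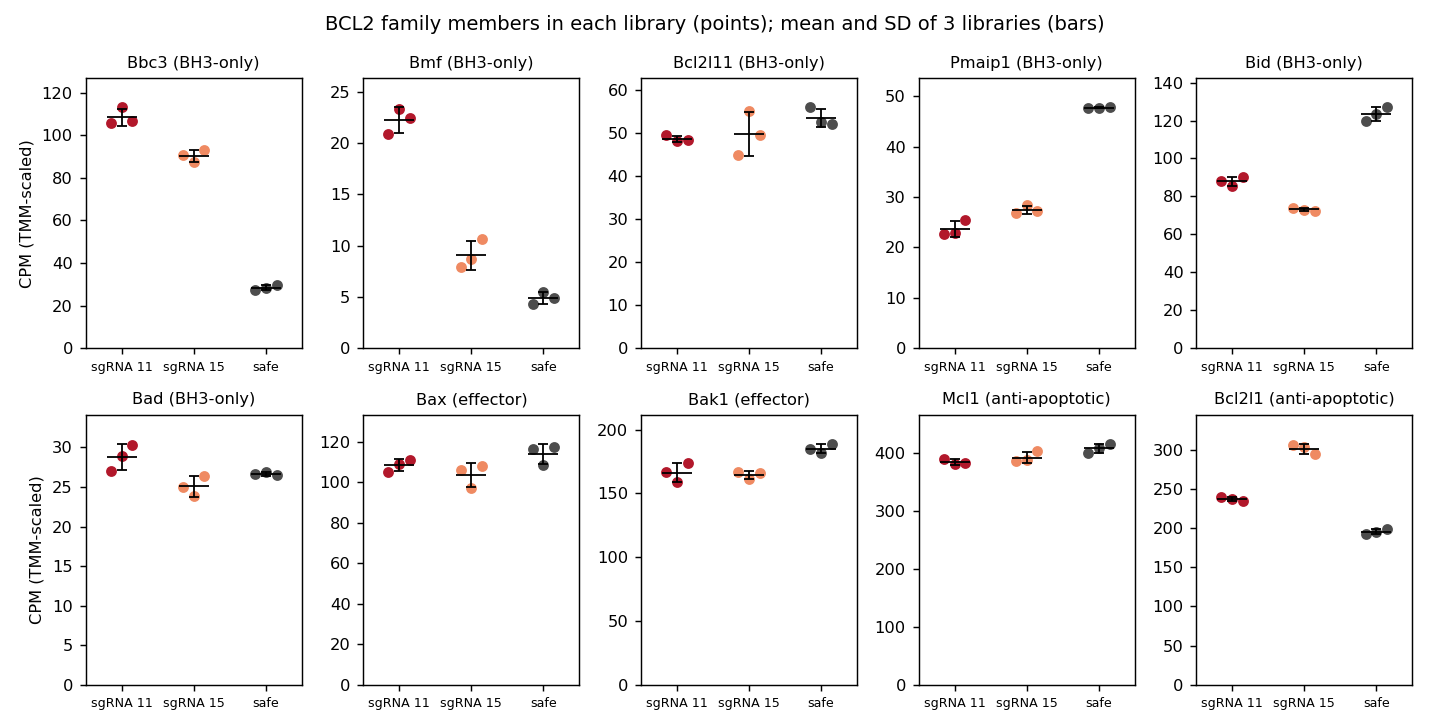
Level of each of the 10 genes in CPM (scaled by TMM, linear axes from 0) in the sgRNA 11, sgRNA 15 and safe sgRNA groups, with 1 point per library and bars for the mean and SD of 3 libraries. Bbc3 and Bmf stand highest with sgRNA 11 and lowest with safe sgRNA, Pmaip1 and Bid highest with safe sgRNA, and Bcl2l1 highest with sgRNA 15.

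The effectors were slightly lower with the guides. Bax (chr7:45461697-45466898), cytosolic until it is activated, had 105.1, 109.2 and 111.1 CPM with sgRNA 11 and 106.0, 97.0 and 107.9 CPM with sgRNA 15, against 116.2, 108.3 and 117.4 CPM with safe sgRNA. Its sgRNA 11 range overlapped the safe range. Bax fell by 0.14 on the log2 scale with sgRNA 15 (SE 0.04, adjusted p = 0.000528), and with sgRNA 11 the log2 fold change was -0.07 (SE 0.04, adjusted p = 0.0748), called in 6 of 18 alternatives, among them the one without safe replicate 2, where it was -0.12 (adjusted p = 0.00901), and the one with GC and length trends removed, where it was -0.20 (adjusted p = 9.01e-07).

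Bak1 (chr17:27019810-27029009), resident in the outer membrane, had 166.6, 158.7 and 173.7 CPM with sgRNA 11 and 166.5, 161.1 and 165.6 CPM with sgRNA 15, against 184.7, 181.7 and 188.7 CPM with safe sgRNA. All 6 guide libraries lay below all 3 safe libraries. Bak1 fell by 0.15 on the log2 scale with sgRNA 11 (SE 0.03, adjusted p = 6.02e-06) and by 0.17 with sgRNA 15 (SE 0.03, adjusted p = 6.09e-07). With GC and length trends removed the log2 fold change was -0.31 with sgRNA 11 and -0.26 with sgRNA 15. Exon overlap makes both effectors uncertain, by 12.2% of the length for Bax (Gm45808, same strand) and 18.2% for Bak1 (Ggnbp1, other strand).

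The anti-apoptotic genes differed from safe sgRNA in opposite directions. Mcl1 (chr3:95658788-95663176) encodes a short-lived protein that binds NOXA, BIM and PUMA, and had 390.3, 381.6 and 382.7 CPM with sgRNA 11 and 385.4, 387.7 and 402.9 CPM with sgRNA 15, against 400.5, 409.0 and 415.1 CPM with safe sgRNA. These ranges were near each other, and that of sgRNA 15 overlapped the safe one. The test called falls of 0.08 with sgRNA 11 (SE 0.02, adjusted p = 0.00198) and of 0.06 with sgRNA 15 (SE 0.02, adjusted p = 0.0335) on the log2 scale. Scaling by library size only ended both calls (adjusted p = 0.0576 for sgRNA 11 and 0.468 for sgRNA 15), and leaving out sgRNA 15 replicate 1 (adjusted p = 0.126) or replicate 2 (adjusted p = 0.0682) ended that of sgRNA 15, as did a change of the filter on low counts. With GC and length trends removed both falls were larger and still called, at -0.15 with sgRNA 11 (adjusted p = 2.03e-08) and -0.15 with sgRNA 15 (adjusted p = 4.98e-08).

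Bcl2l1 (chr2:152780668-152831728) rose with both guides, and more with sgRNA 15. It had 239.6, 236.7 and 234.1 CPM with sgRNA 11 and 305.5, 303.0 and 293.6 CPM with sgRNA 15, against 191.6, 195.1 and 198.2 CPM with safe sgRNA. The groups did not overlap and varied little within themselves. The rise was 1.22-fold with sgRNA 11 (log2 0.28, SE 0.03, adjusted p = 6.31e-16) and 1.54-fold with sgRNA 15 (log2 0.63, SE 0.03, adjusted p = 1.61e-36), and the guides differed by 0.35 (SE 0.03, adjusted p = 3.14e-20). With GC and length trends removed the rise with sgRNA 11 was 0.13 on the log2 scale and still called.

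**Figure D2:**
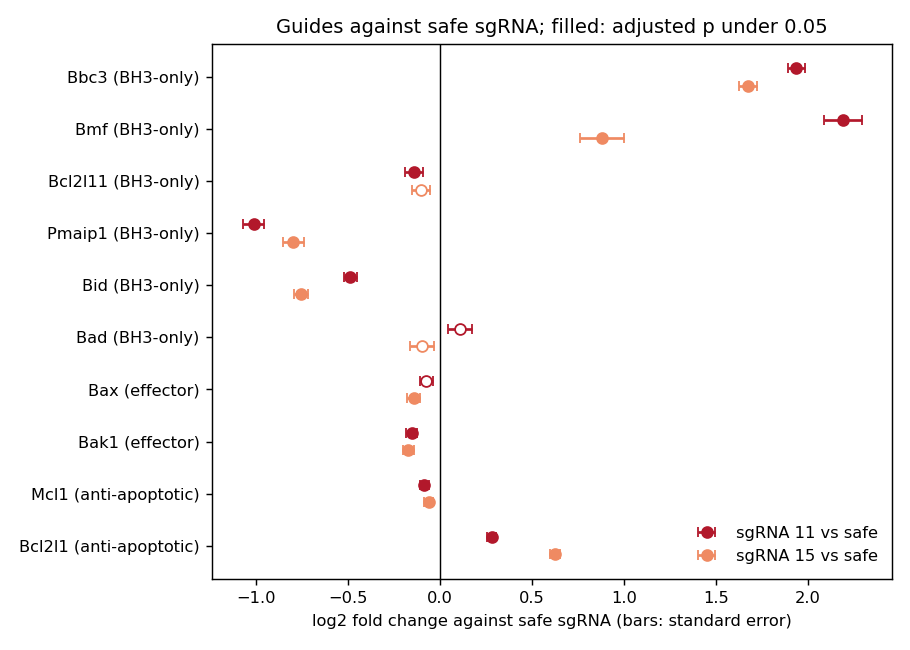
Log2 fold change of each gene with sgRNA 11 and with sgRNA 15, each against safe sgRNA, with bars for the standard error and filled points for an adjusted p under 0.05 (edgeR). Bmf shows the largest gap between the guides, at 2.19 for sgRNA 11 and 0.88 for sgRNA 15, while the effectors and Mcl1 lie between -0.17 and -0.06.

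Set directly against each other, the guides differed in 6 of the 10 genes, against a background of 33.5% of all tested genes. Pmaip1 and Bcl2l1 were higher with sgRNA 15 than with sgRNA 11, and Bbc3, Bmf, Bid and Bad were lower. In the same 6 genes the libraries of the guides did not overlap, as in 42.8% of all tested genes. Bmf alone passed a log2 fold change of 0.5, where the background was 5.26%. For Bbc3, Bmf and Pmaip1, sgRNA 11 was farther from safe sgRNA, and for Bid and Bcl2l1 sgRNA 15 was. Bad differed by a log2 fold change of -0.20 (SE 0.06, adjusted p = 0.00917), a call lost without sgRNA 11 replicate 3 (adjusted p = 0.0755), without sgRNA 15 replicate 2 (adjusted p = 0.0645) and with GC and length trends removed (adjusted p = 0.103). No difference between the guides was detected for Bcl2l11, Bax, Bak1 or Mcl1, with log2 fold changes of 0.04, -0.07, -0.02 and 0.03, except that Bax was called without sgRNA 11 replicate 1 (log2 -0.10, adjusted p = 0.0475).

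Per kilobase (kb) of exon, which allows levels of different genes to be compared, Mcl1 was the most abundant of the 10 genes in every group, at 113 ± 1.38 CPM per kb with sgRNA 11, 115 ± 2.78 with sgRNA 15 and 119 ± 2.14 with safe sgRNA (SD, n = 3). In safe cells the order was Mcl1, Bak1, Bax, Bcl2l1, Bid, Pmaip1, Bbc3, Bad, Bcl2l11 and Bmf, and no neighbouring ranges overlapped. Bbc3 was the fifth with either guide, where it stood at 51.0 CPM per kb with sgRNA 11 and 42.5 with sgRNA 15, against 13.4 and the seventh place with safe sgRNA. With sgRNA 11 its range overlapped that of Bcl2l1, at 51.6 CPM per kb, and those of Bak1 (69.1) and Bax (68.8) overlapped. With sgRNA 15, Bak1 (68.3), Bax (65.8) and Bcl2l1 (65.6) ran together, as did Pmaip1 (10.0) and Bad (9.80). The exon length counts every annotated transcript, so a gene with long alternative exons has a lower value on this scale.

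**Figure D3:**
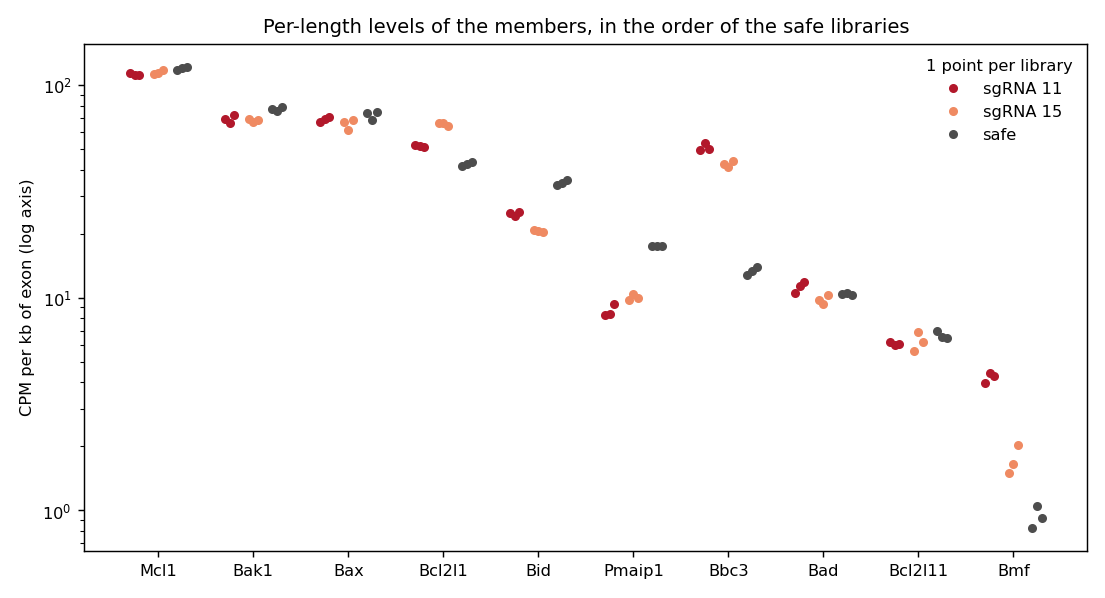
Level of each gene in CPM per kb of exon on a log axis, with 1 point per library for sgRNA 11, sgRNA 15 and safe sgRNA, in the order of the safe libraries. Bbc3 stands out of that order, at 51.0 CPM per kb with sgRNA 11 and 42.5 with sgRNA 15, against 13.4 with safe sgRNA, and Bmf is lowest in every group.

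Summed by role, the 6 BH3-only genes gave 106 ± 2.13 CPM per kb with sgRNA 11 and 90.9 ± 1.56 with sgRNA 15, against 83.6 ± 1.36 with safe sgRNA (SD, n = 3). Bbc3 made up 48.1 ± 1.35% of that sum with sgRNA 11 and 46.8 ± 0.91% with sgRNA 15, against 15.97 ± 0.41% with safe sgRNA. Without Bbc3 the order turned, at 55.0 ± 1.65 CPM per kb with sgRNA 11 and 48.4 ± 0.79 with sgRNA 15, against 70.3 ± 0.80 with safe sgRNA. The Bax and Bak1 sum was 138 ± 4.11 with sgRNA 11 and 134 ± 4.87 with sgRNA 15, against 149 ± 4.46 with safe sgRNA, and the Mcl1 and Bcl2l1 sum was 164 ± 1.91 with sgRNA 11 and 180 ± 1.42 with sgRNA 15, against 162 ± 2.85 with safe sgRNA. Bcl2l1 held 31.4 ± 0.16% of the anti-apoptotic sum with sgRNA 11 and 36.4 ± 1.04% with sgRNA 15, against 26.3 ± 0.03% with safe sgRNA. The ratio of the BH3-only to the anti-apoptotic sum was 0.646 ± 0.020 with sgRNA 11, above the others, and 0.504 ± 0.005 with sgRNA 15, just below the 0.516 ± 0.001 of safe sgRNA. These sums describe transcripts and carry no test.

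**Figure D4:**
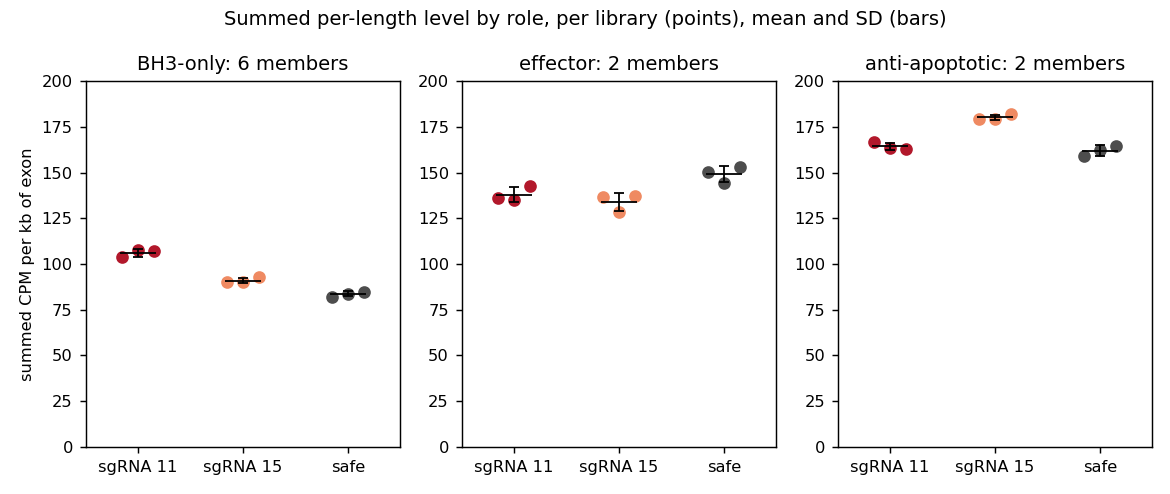
Summed level of the BH3-only, effector and anti-apoptotic genes in CPM per kb of exon (linear axis from 0), with 1 point per library and bars for the mean and SD of 3 libraries. The BH3-only sum is highest with sgRNA 11, at 106, and the anti-apoptotic sum is highest with sgRNA 15, at 180.

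Other members of the family were taken from a list of 14 genes, of which 9 had enough counts. For the guides' mean set against safe sgRNA, where 68.0% of all tested genes were called (34.7% higher and 33.3% lower), 5 rose (Bcl2, Bcl2l2, Bcl2a1a, Bcl2a1d and Bnip3l) and 2 fell (Bcl2l13 and Bnip3). The median log2 fold change over the 9 genes was 0.41. That is the value of Bcl2l14, which had 10 to 27 counts per library and was not called (edgeR, adjusted p = 0.257). With a minimum mean of 5 CPM, 3 rose and 2 fell, where the median of all tested genes was 0.01. Bcl2, the founding anti-apoptotic gene, had 36.7, 37.3 and 36.6 CPM with sgRNA 11 and 53.6, 49.8 and 52.5 CPM with sgRNA 15, against 26.4, 26.3 and 24.3 CPM with safe sgRNA. As for Bcl2l1, its rise was larger with sgRNA 15 (log2 1.01, SE 0.05) than with sgRNA 11 (log2 0.52, SE 0.06), and the guides differed by 0.49 (adjusted p = 2.17e-13). Bnip3l, a mitophagy receptor, rose with both guides, by 0.62 on the log2 scale for sgRNA 11 and 0.55 for sgRNA 15. Bcl2l2, which encodes the anti-apoptotic BCL-W, rose by 0.39 with sgRNA 11 and 0.32 with sgRNA 15, and 13.3% of its exon length is shared with another gene. Bcl2a1a and Bcl2a1d, near-identical copies of an anti-apoptotic gene whose reads may be split or lost, had 3.21, 1.73 and 2.85 CPM and 4.09, 3.74 and 3.17 CPM with sgRNA 11. With sgRNA 15 Bcl2a1a had 1.35, 1.30 and 1.15 CPM and Bcl2a1d 4.59, 3.70 and 4.96 CPM. With safe sgRNA Bcl2a1a had 0.319, 0.253 and 0 CPM, and Bcl2a1d had 1.44, 1.62 and 1.19 CPM. No fold change is given for Bcl2a1a because of that 0.

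Of 17 genes of the apoptosome and the caspases, all tested, 4 rose (Casp9, Casp2, Xiap and Birc2) and 6 fell (Cycs, Birc3 and Endog among them) for the mean of guides, with a median log2 fold change of 0.01, equal to that of all tested genes. The background for these counts was 34.7% higher and 33.3% lower. With GC and length trends removed 3 rose and 8 fell, while the median log2 fold change of all tested genes moved to -0.03. The background given belongs to the fit without that removal. Cycs, cytochrome c, which the pores release and which drives caspase activation with Apaf1, had 97.3, 90.1 and 96.6 CPM with sgRNA 11 and 110.6, 110.5 and 110.8 CPM with sgRNA 15, against 202.8, 198.2 and 196.5 CPM with safe sgRNA. The fall of Cycs was 1.07 on the log2 scale with sgRNA 11 (SE 0.03, adjusted p = 1.76e-47) and 0.85 with sgRNA 15 (SE 0.03, adjusted p = 1.59e-40). Its partner Apaf1 averaged 85.4 ± 0.32 CPM with sgRNA 11 and 85.0 ± 1.30 CPM with sgRNA 15, against 83.2 ± 1.38 CPM with safe sgRNA, and was not called (log2 0.03 for the mean of guides, SE 0.03, adjusted p = 0.353). Casp9, the initiator caspase of the apoptosome, rose by 0.19 on the log2 scale with sgRNA 11 and 0.18 with sgRNA 15, and both calls were lost with GC and length trends removed (log2 0.07 and 0.09). Casp2, an initiator caspase whose protein can cut BID, rose by 0.80 with sgRNA 11 and 0.51 with sgRNA 15. Birc3, an inhibitor of apoptosis of the TNF receptor complex, fell by 0.64 on the log2 scale with sgRNA 11 and by 0.69 with sgRNA 15, and the mitochondrial nuclease gene Endog, which shares 35.7% of its exon length with another gene, fell by 0.81 with sgRNA 11 and by 0.93 with sgRNA 15.

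Proteins that bind members of the family or control their turnover were listed in 13 genes, all tested, and 12 of these fell and 1 (Fbxw7) rose for the mean of guides, with a median log2 fold change of -0.31. Of all tested genes 33.3% fell and 34.7% rose in that comparison. Vdac2, a channel that holds BAK in the outer membrane, averaged 268 ± 6.84 CPM with sgRNA 11 and 316 ± 0.33 CPM with sgRNA 15, against 404 ± 2.60 CPM with safe sgRNA. The fall of Vdac2 was 0.59 on the log2 scale with sgRNA 11 (adjusted p = 2.27e-36) and 0.35 with sgRNA 15 (adjusted p = 1.32e-22). The 14-3-3 genes Ywhae and Ywhag, whose proteins can hold phosphorylated BAD, both fell, Ywhae by 0.53 with sgRNA 11 and 0.47 with sgRNA 15, and Ywhag by 0.40 with sgRNA 11 and 0.39 with sgRNA 15. Dynll2, the light chain that binds BMF, had 127 ± 3.54 CPM with sgRNA 11 and 133 ± 4.69 CPM with sgRNA 15, against 171 ± 7.29 CPM with safe sgRNA, and fell by 0.42 with sgRNA 11 and 0.37 with sgRNA 15.

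Of 13 transcription factors known to act on genes of the family, 12 were tested, and 6 rose (Ddit3, Atf4, Foxo1, Foxo3, Stat5a and Stat5b) and 4 fell (Trp53, E2f1, Jun and Stat3) for the mean of guides, with a median log2 fold change of 0.11, against a background of 34.7% higher and 33.3% lower. Ddit3, which encodes CHOP, a stress factor that can induce Bbc3 and Bcl2l11, had 14.8, 18.2 and 16.04 CPM with sgRNA 11 and 21.2, 23.0 and 22.7 CPM with sgRNA 15, against 5.99, 6.22 and 4.75 CPM with safe sgRNA. Its rise on the log2 scale was 1.51 with sgRNA 11 (SE 0.10, adjusted p = 5.32e-24) and 1.97 with sgRNA 15 (SE 0.10, adjusted p = 3.58e-32). Ddit3 was higher with sgRNA 15 than with sgRNA 11 (log2 0.46, adjusted p = 2.50e-06). Atf4, the factor that induces Ddit3 when amino acids run short, rose by 0.66 with sgRNA 11 and 0.87 with sgRNA 15. Foxo3 averaged 85.5 ± 0.26 CPM with sgRNA 11 and 69.3 ± 1.49 CPM with sgRNA 15, against 58.7 ± 1.33 CPM with safe sgRNA. The rise of Foxo3 was 0.54 with sgRNA 11 and 0.24 with sgRNA 15. Foxo1 rose by 0.77 with sgRNA 11 and 0.58 with sgRNA 15. Trp53, which encodes p53, fell by 0.13 with sgRNA 11 and by 0.30 with sgRNA 15. None of these levels measures the activity of a factor, and the part of these factors in the levels of the family's genes was not tested.

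The death receptor and necroptosis list held 9 genes, 8 of them tested, and 2 rose (Tnfrsf1a and Cflar) and 3 fell (Fas, Ripk3 and Mlkl) for the mean of guides, with a median log2 fold change of -0.03. Its share called, 5 of 8, stands beside the background of 68.0%. Tnfrsf1a, the main TNF receptor, rose by 0.50 on the log2 scale with sgRNA 11 and 0.20 with sgRNA 15. Fas, whose receptor acts through caspase-8 and BID, was scarce, at 1.77 ± 0.37 CPM with sgRNA 11 and 1.15 ± 0.29 CPM with sgRNA 15, against 3.29 ± 0.63 CPM with safe sgRNA, and fell by 0.88 with sgRNA 11 and by 1.54 with sgRNA 15. Ripk3, a kinase of necroptosis, fell by 0.22 on the log2 scale with sgRNA 11 and by 0.46 with sgRNA 15. Cflar, which restrains caspase-8, rose by 0.39 with sgRNA 15, and its rise of 0.09 with sgRNA 11 (adjusted p = 0.0211) was lost under DESeq2 (adjusted p = 0.0882).

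**Figure D5:**
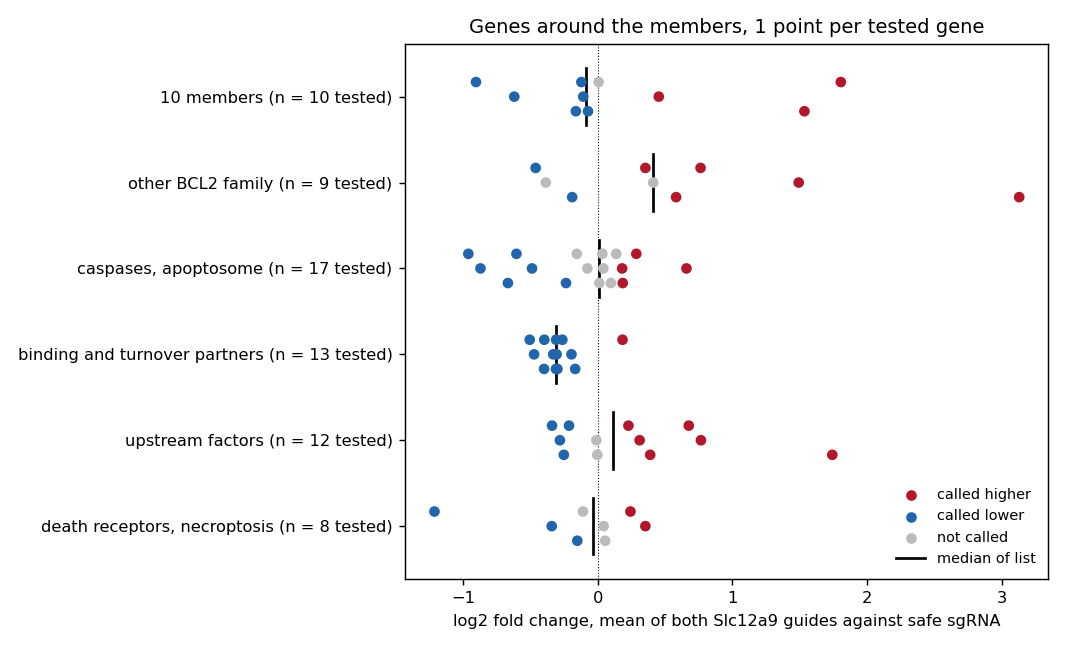
Log2 fold change for the mean of the Slc12a9 guides, set against safe sgRNA, with 1 point per tested gene of the 10 genes and the 5 lists around them, red or blue where the adjusted p was under 0.05 (edgeR), and a black line at the median of each list. The binding and turnover partners lie to the left, with a median of -0.31, and the other BCL2 family genes to the right, with a median of 0.41. That median is the value of Bcl2l14, a gene of few counts that was not called. The point farthest right is Bcl2a1a, a fitted value from few counts.

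The genes whose levels ran most like those of the 3 largest movers were sought among 9297 candidates with a mean of at least 5 CPM, by the root mean square (RMS) difference of log2 CPM over the 9 libraries after centring on the safe mean. Nearest to Bbc3 were St6gal1, a sialyltransferase gene (RMS 0.072), and Dyrk1b, a kinase gene (RMS 0.073). St6gal1 averaged 17.6 ± 0.61 CPM with sgRNA 11 and 15.1 ± 0.74 CPM with sgRNA 15, against 4.51 ± 0.08 CPM with safe sgRNA. Nearest to Bmf were Il17ra (RMS 0.202) and Mxd4 (RMS 0.231), and Il17ra averaged 26.6 ± 1.59 CPM with sgRNA 11 and 12.8 ± 0.52 CPM with sgRNA 15, against 5.81 ± 0.27 CPM with safe sgRNA. Nearest to Pmaip1 were Urb2, a ribosome biogenesis gene (RMS 0.031), and Fasn, fatty acid synthase (RMS 0.050). Fasn averaged 444 ± 10.3 CPM with sgRNA 11 and 537 ± 7.21 CPM with sgRNA 15, against 897 ± 30.2 CPM with safe sgRNA. Bmf had the loosest neighbours of the 3, and also the lowest counts. Counting alone gives a coefficient of variation with safe sgRNA of 9.87% for Bmf, 4.10% for Bbc3 and 3.15% for Pmaip1. The part of that noise in the looser match was not tested.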

How the data were processed

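For each library the authors deposited whole-number counts per gene, obtained with STAR and HTSeq on mm10 per the submitters' processing notes. Their versions, annotation and strand setting were not given in the sources used here. HTSeq's tallies of unassigned reads, 19.3 to 20.7% of each table, stayed out of library sizes and tests.

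Symbols, positions, exon overlaps and lengths came from GENCODE M21 (same build), and 55141 of 55487 identifiers had a symbol. Ddit3 matched a pair of identifiers, and the one with the longer exons was used. The counts went into edgeR 4.0.16 (R 4.3.3): filterByExpr (minimum count 10), TMM scaling and a robust quasi-likelihood fit to all 9 libraries (6 residual degrees of freedom), with 2-sided F tests for each guide against safe sgRNA, for their mean, and for sgRNA 15 against sgRNA 11. Adjustment (Benjamini-Hochberg) was over all 13453 tested genes of a contrast, with a threshold of 0.05. CPM values are TMM-scaled. The procedure was tested on simulated data.

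The members and lists were chosen with earlier results of these data known. Besides the 10 genes, up to 4 called genes of each list with the largest change for the mean of guides, the 2 nearest genes of 3 members and Slc12a9 were named by rule. Apaf1, Casp9, Trp53 and Bcl2l2 were chosen after their values were seen. No pair of replicates agreed within sampling noise (chi-square per degree of freedom 1.76 to 6.83). The highest values were those of safe replicate 1 against safe replicate 2 (6.83) and safe replicate 3 (5.16), while safe replicates 2 and 3 gave 2.16. Alternatives were DESeq2 1.42.0, limma-voom (limma 3.58.1), other size factors, other filters, a replicate block, a fit to the compared groups alone, and each library left out in turn. Removal of GC and length trends used GENCODE transcripts in place of a genome, a substitute chosen after seeing the data.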

Additional observations from a re-analysis of the deposited data

Results flagged for a closer look

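In 6 of the 10 genes the guides differed from each other by a direct test of sgRNA 15 against sgRNA 11. The log2 fold change was -1.31 for Bmf, -0.27 for Bid, -0.26 for Bbc3 and -0.20 for Bad, all lower with sgRNA 15, and 0.35 for Bcl2l1 and 0.22 for Pmaip1, both higher with sgRNA 15. Groups of 3 libraries are too small for the check for single outlying libraries.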

How the results depend on the processing

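Bbc3, Bmf, Bid and Bcl2l1 kept their direction and their call in all 4 contrasts under every alternative run, as did Pmaip1 and Bak1 against safe sgRNA. Over all alternatives, members called numbered 7 to 9 with sgRNA 11, 7 to 10 with sgRNA 15, 7 to 10 for the mean of guides and 4 to 6 between the guides, and genes called numbered 7554 to 8940, 7247 to 8565, 7714 to 9236 and 3795 to 4695. Leaving out 1 library each, the members numbered 7 to 9, 7 to 9, 8 to 9 and 5 to 6. Deviations of same-numbered libraries correlated at -0.01 to 0.06. Whether the replicate numbers pair the libraries is not settled by this, since differently numbered libraries of different groups were not compared. With the replicate block 9, 8, 9 and 6 members and 8940, 8550, 9236 and 4695 genes were called, and among members only Bax with sgRNA 11 changed its call (log2 -0.07, adjusted p = 0.0441). Scaling by library size only gave 4 members higher and 3 lower with sgRNA 11, where the median log2 fold change of all tested genes was 0.046, against 0.013 in the main fit. Without sgRNA 11 replicate 1, 1 member was higher and 5 were lower between the guides.

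Signs turned for small differences, and the cause was not tested. Removal of GC and length trends also moved the median log2 fold change of all tested genes. That median became -0.034 with sgRNA 11, -0.042 with sgRNA 15 and -0.032 for the mean of guides. The part of this shift in the turned signs was not tested. With GC and length trends removed, the log2 fold change turned to -0.0515 for Bad with sgRNA 11, -0.119 for Bad and the mean of guides (adjusted p = 0.0485), -0.0498 for Apaf1 with sgRNA 15 and -0.0167 for Apaf1 and the mean of guides, and -0.0651 for Slc12a9 with sgRNA 15. Between the guides it turned to -0.00217 for Bcl2l11, 0.018 for Bax, 0.0503 for Bak1 and 0.0213 for Casp9. For Bad and the mean of guides it was -0.000844 with relative log expression factors and -0.000136 with DESeq2. Ywhag between the guides turned to -0.00486 with no filter and -0.00514 under the 5 CPM minimum, and Apaf1 to 0.000335 with library size only. Leaving out 1 library each gave -0.0248 to 0.0332 for Bad and the mean of guides and -0.0163 to 0.109 for Slc12a9 with sgRNA 15. Between the guides it gave -0.0569 to 0.101 for Bcl2l11, -0.0549 to 0.00749 for Bak1, -0.00718 to 0.0159 for Ywhag and -0.0332 to 0.0118 for Casp9. Counts of 90 to 10032 per member and library limit Bmf most.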
